A study of Mus musculus with 8 samples.

Results

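The 3 induced hepatocyte (iHep) lines 4a3, 4a3CK and 4a1CK were set against 2 arrays of mouse embryonic fibroblasts (MEFs), and the account below is about the genes that are not part of the hepatocyte programme. These 5 arrays come from a series of 8, in which 3 arrays of primary hepatocytes (PH) shared the estimate of the spread. For each gene the brightest probe set by its mean over the 8 arrays was taken, among those annotated with 1 gene symbol, which gave 17097 genes. Leaving out 414 genes of the hepatocyte programme (secreted liver proteins, drug and bile acid metabolism, liver transcription factors and related families) left 16683. Of these, 7060 had all 3 lines above both MEF arrays and 3095 had all 3 lines below, together 10155 genes with 1 direction.

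The MEFs were primary cells of C57/B6 embryos at embryonic day 13.5, and for MEF 1 the labels add that head and internal organs had been removed. The lines were grown out of fibroblasts transduced with retroviruses, 4a3 with Hnf4a and Foxa3, 4a3CK with Hnf4a, Foxa3, c-Myc and Klf4, and 4a1CK with Hnf4a, Foxa1, c-Myc and Klf4, and all were taken at passage 10. For colonies the labels give day 5 in 4a3CK and 4a1CK and 2 weeks in 4a3. They were kept on collagen I in a medium with 10% serum, 0.1 µM dexamethasone, 10 mM nicotinamide, insulin, transferrin and selenium, 10 ng/ml FGF4 and 20 ng/ml each of HGF and EGF. The PH arrays were of hepatocytes from C57/B6 males of 8 to 10 weeks, cultured after collagenase perfusion. The strain of the fibroblasts behind the lines, the number of colonies or clones in a line and the medium of the MEFs are not stated by the labels, so medium, passage and cell state cannot be told apart. Each line is 1 array with its own set of factors, nothing in the labels says that the MEF arrays are of separate embryos or cultures, and the p-values therefore measure only the spread between these arrays.

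Fibroblasts are mesenchymal cells that build and remodel the extracellular matrix, pull on it with actin stress fibres, and keep a memory of their place in the body in patterning transcription factors. Epithelial cells instead hold to each other through junctions, carry a polarized apical surface and express keratins of the simple type. Conversion of fibroblasts to an epithelial hepatocyte-like state therefore involves genes well beyond the liver programme, from matrix enzymes to the ligands and receptors by which mesenchyme and epithelium signal to each other.

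Values are deposited log2 signals, so a difference of 1 is a 2-fold difference, and they are listed as MEF 1 and 2, then 4a3, 4a3CK and 4a1CK. A gene was called where limma gave an adjusted p under 0.05, the difference between the means of lines and MEFs was at least 1, and the 3 lines were all above, or all below, both MEF arrays. The last condition removed no gene that met the others. Errors are standard errors of that model for 3 lines against 2 MEF arrays. A value of 4.56, the 40th percentile of all gene values, was taken as the level under which a gene is dim. The background, read from control probe sets without a mouse target, had a median of 2.83 and 2.88 on the MEF arrays and of 3.03 to 3.06 on the lines.

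Outside the hepatocyte programme 1082 genes were called (6.49% of 16683), 325 higher in the lines (1.95%) and 757 lower (4.54%). The falls were therefore the larger share. For each list below, 1.95% higher and 4.54% lower are the shares over all these genes. The falls also held the wider gaps. A gap of at least 2 between the nearest line and the nearest MEF array separated 56 higher genes (0.336%) and 219 lower genes (1.31%), and a gap of at least 4 separated 4 higher (0.024%) and 40 lower (0.24%). The median difference over all genes was 0.16, and the split moved from 325 higher of 1082 called to 676 of 1582 (42.7%) after quantile normalization and to 659 of 1563 (42.2%) after subtracting array medians. Without the array PH 3, whose median signal was 5.80 against 4.93 to 5.06 on the other 7 arrays, 1847 genes were called, and without MEF 1, MEF 2 or 4a3 there were 460, 558 and 549. The arrays were deposited in 2 sets of sample numbers, MEF 1, PH 1 and PH 2 in one and the other 5 in the other, and with the set as a block 1005 genes were called, 17.6% of them higher.

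Bacterial transcripts added as hybridization controls averaged 8.23 and 8.03 on the MEF arrays and 8.96 to 9.14 on the lines. With that level as a block, cut at its widest gap, 1426 genes were called, 90 higher and 1336 lower, of which 624 were among the genes called without it, and the median difference over all genes was then -0.57. Cut at the middle of its range, the block left 95 genes, 4 of them higher. The PH arrays alone link the sides of the block at its widest gap, since MEFs and lines lie wholly apart. Among the PH arrays only PH 3 (8.95) was on the side of the lines, so the block term is PH 3 against PH 1 and PH 2. PH 3 also had the highest median signal, 5.80. With the array median subtracted, the control level was 3.16 on PH 3 and 3.43 and 3.67 on PH 1 and PH 2. It was 3.27 and 3.06 on the MEF arrays and 3.96 to 4.12 on the lines. Counts and lost calls given for this block therefore cannot separate control level from the brightness of PH 3. The 3' minus 5' difference of the actin control probe sets for Actb, a measure of RNA length, was 0.51 and 0.52 (log2) in the MEFs and 1.43, 0.71 and 0.94 in the lines, while that for Gapdh was 0.23 and 0.58 against 0.31, 0.20 and 0.19. The part of control level and RNA length in the differences below was not tested. In 297 of the 757 called lower the mean of the lines was dim (39.2%), and in 64 of the 325 called higher the mean of the MEFs was (19.7%).

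The first of the higher genes by gap was Mycn, a Myc family transcription factor, at 4.47 and 4.67 in the MEFs and 11.75, 12.11 and 11.97 in the lines. Lines and MEFs lay far apart on this probe set, a difference of 7.37 ± 0.45 (adjusted p = 0.000108). The other 2 probe sets of Mycn differed by -0.54 and 0.54. Both were dim on the MEF arrays and the lines, so the rise of Mycn rests on 1 probe set. Tspan8, a tetraspanin of gut and liver epithelium, was at 2.85 and 2.83 in the MEFs and 10.19, 11.03 and 8.29 in the lines. The MEF arrays sat at the background and every line was bright, a difference of 6.99 ± 0.90 (adjusted p = 0.00314). Without probe sets that can bind several transcripts Tspan8 was not called (1.77, adjusted p = 0.0621), and the means over all probe sets differed by 3.08 for Tspan8 and 2.46 for Mycn. Rab27b, a small GTPase that brings secretory vesicles to the plasma membrane, was at 4.05 and 4.12 in the MEFs and 8.72, 10.15 and 8.44 in the lines. Tspan8 and Rab27b were the only genes that were dim on both MEF arrays and above 8 in all 3 lines, and the PH arrays read 7.48, 6.84 and 4.81 for Tspan8 and 3.71, 3.78 and 4.79 for Rab27b. Leaving out a MEF array or a line drops a condition of this rule, so the count of genes that meet it could not fall. It was 6 without MEF 1, 7 without MEF 2, 6 without 4a3CK, 9 without 4a1CK and still 2 without 4a3.

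**Figure D1:**
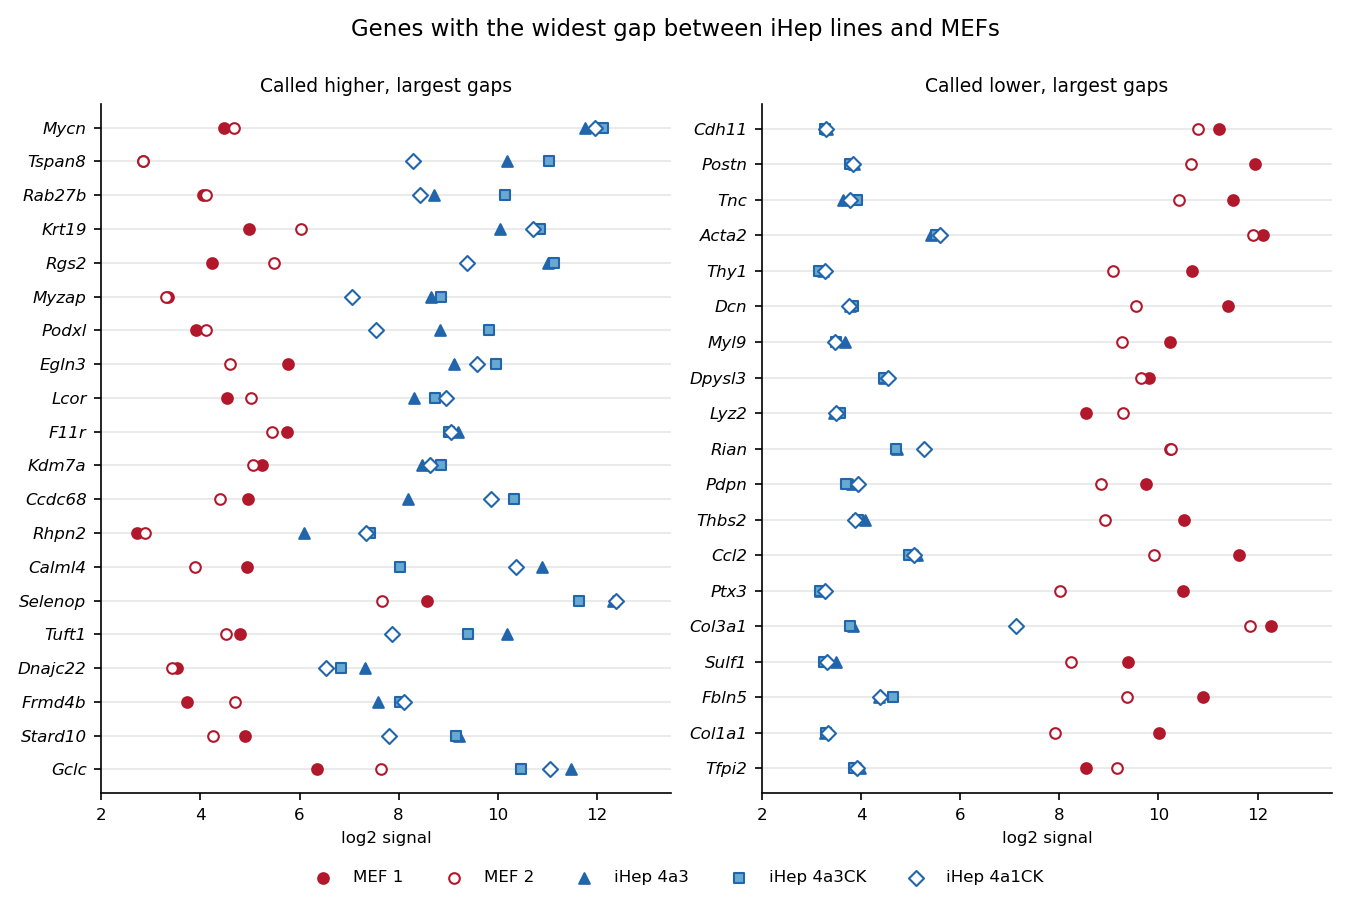
Log2 signal on each MEF array and iHep line for the called genes outside the hepatocyte programme with the largest gap between lines and MEFs (left, 20 genes higher in the lines; right, 19 lower, leaving out 1 gene known by a clone name). The lines lie close together for most of the falling genes, as for Cdh11 (3.27 to 3.31), and are more spread for the rising ones, as for Tspan8 (8.29 to 11.03).

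Rgs2, which shortens signalling through G protein-coupled receptors, was at 4.22 and 5.49 in the MEFs and 11.02, 11.13 and 9.39 in the lines. Podxl, an apical sialomucin, was at 3.91 and 4.11 in the MEFs and 8.84, 9.82 and 7.54 in the lines. F11r, the junctional adhesion molecule A of tight junctions, was at 5.74 and 5.45 in the MEFs and 9.20, 9.02 and 9.05 in the lines. The lines agreed closely for F11r and spread more for Rgs2 and Podxl, in which 4a1CK was the lowest, with differences of 5.66, 4.72 (2.70 in the mean over its probe sets) and 3.49. The lysine demethylase Kdm7a (3.50), the nuclear receptor corepressor Lcor (3.89), the oxygen-sensing hydroxylase Egln3 (4.38), the selenium carrier Selenop (4.00) and Gclc, the catalytic subunit of the enzyme that starts glutathione synthesis (4.00), were also among the 20 widest gaps. Rgs2 and Egln3 were above PH as well (adjusted p = 0.00185 and 0.00291, with iHep minus PH differences of 6.23 and 4.31), whereas Lcor and Selenop did not differ from PH beyond the threshold (adjusted p = 0.337 and 0.975, differences 0.52 and 0.04). Selenop lies outside the list used for the hepatocyte programme, which does not hold every gene that hepatocytes express. The Rgs2 call was lost with the bacterial control level as a block.

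Among the falls, 23 genes were above 8 on both MEF arrays and dim in all 3 lines. Cdh11, a cadherin of mesenchyme, was at 11.22 and 10.80 in the MEFs and 3.31, 3.27 and 3.30 in the lines, the widest gap of all, a difference of -7.72 ± 0.23 (adjusted p = 5.02e-06). Thy1, a surface glycoprotein used to mark fibroblasts, was at 10.67 and 9.08 in the MEFs and 3.24, 3.15 and 3.27 in the lines. Both genes were at the background in every line, and the PH arrays were there too, at 3.34 to 3.70 for Cdh11 and 3.16 to 3.81 for Thy1. The others included the matrix proteins Postn (-7.49), Tnc (-7.18) and Thbs2 (-5.75), the surface mucin Pdpn (-5.48), the cytoskeletal protein Dpysl3 (-5.23) and the heparan sulfatase Sulf1 (-5.45), for which 1 of 3 probe sets differed by 0.18. The mean over probe sets was -4.55 for Tnc and -3.47 for Sulf1. With the 30th percentile as the dim level 12 genes met this rule and with the 50th 36. Without MEF 2, which drops a condition of the rule, there were 77.

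Of 16 measured fibroblast identity genes 11 fell and 0 rose, with a median difference of -3.52 against 0.16 over all genes. Vim, the intermediate filament of mesenchyme that cultured cells of many kinds express, was not among them, at 12.07 and 12.30 in the MEFs and 12.25, 11.79 and 12.54 in the lines, and the lines overlapped the MEFs. Col1a2 (6.31 and 3.66, then 3.28, 3.18 and 3.19) and Cdh2 (8.74 and 9.22, then 8.04, 3.38 and 5.59) did not pass either. For Cdh2, N-cadherin, line 4a3 was near the MEFs while 4a3CK was at the background. The regulators of the epithelial to mesenchymal transition gave 2 falls among 12 measured genes, with a median of -1.36. Prrx1, a homeobox factor of limb mesenchyme, was at 9.35 and 9.49 in the MEFs and 4.82, 5.77 and 7.76 in the lines, a difference of -3.31 ± 0.77 (adjusted p = 0.0401). Its relative Prrx2 was at 6.50 and 7.34 in the MEFs and 4.00, 3.23 and 5.23 in the lines. Lines minus MEFs came to -2.77 ± 0.53 (adjusted p = 0.0186). Line 4a1CK was nearest to the MEFs for both, and without that line 5 genes of the list were lower, and without MEF 1 or without MEF 2 none was. Calls lost with 1 array left out were those of Prrx1 (without MEF 1, MEF 2, 4a3, 4a3CK, PH 1 or PH 2, adjusted p = 0.063 to 0.191) and Prrx2 (without MEF 1, MEF 2 or 4a3, adjusted p = 0.0533 to 0.138). The Prrx1 call was also lost in the mean over its probe sets (Prrx1 (-2.41, adjusted p = 0.0506)) and without probe sets for several transcripts (-3.17, adjusted p = 0.175). Snai2 (8.01 and 8.00, then 5.85, 4.88 and 7.91) and Twist2 (9.31 and 8.43, then 5.98, 6.79 and 7.84), which repress epithelial genes, were lower in every line without passing.

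**Figure D2:**
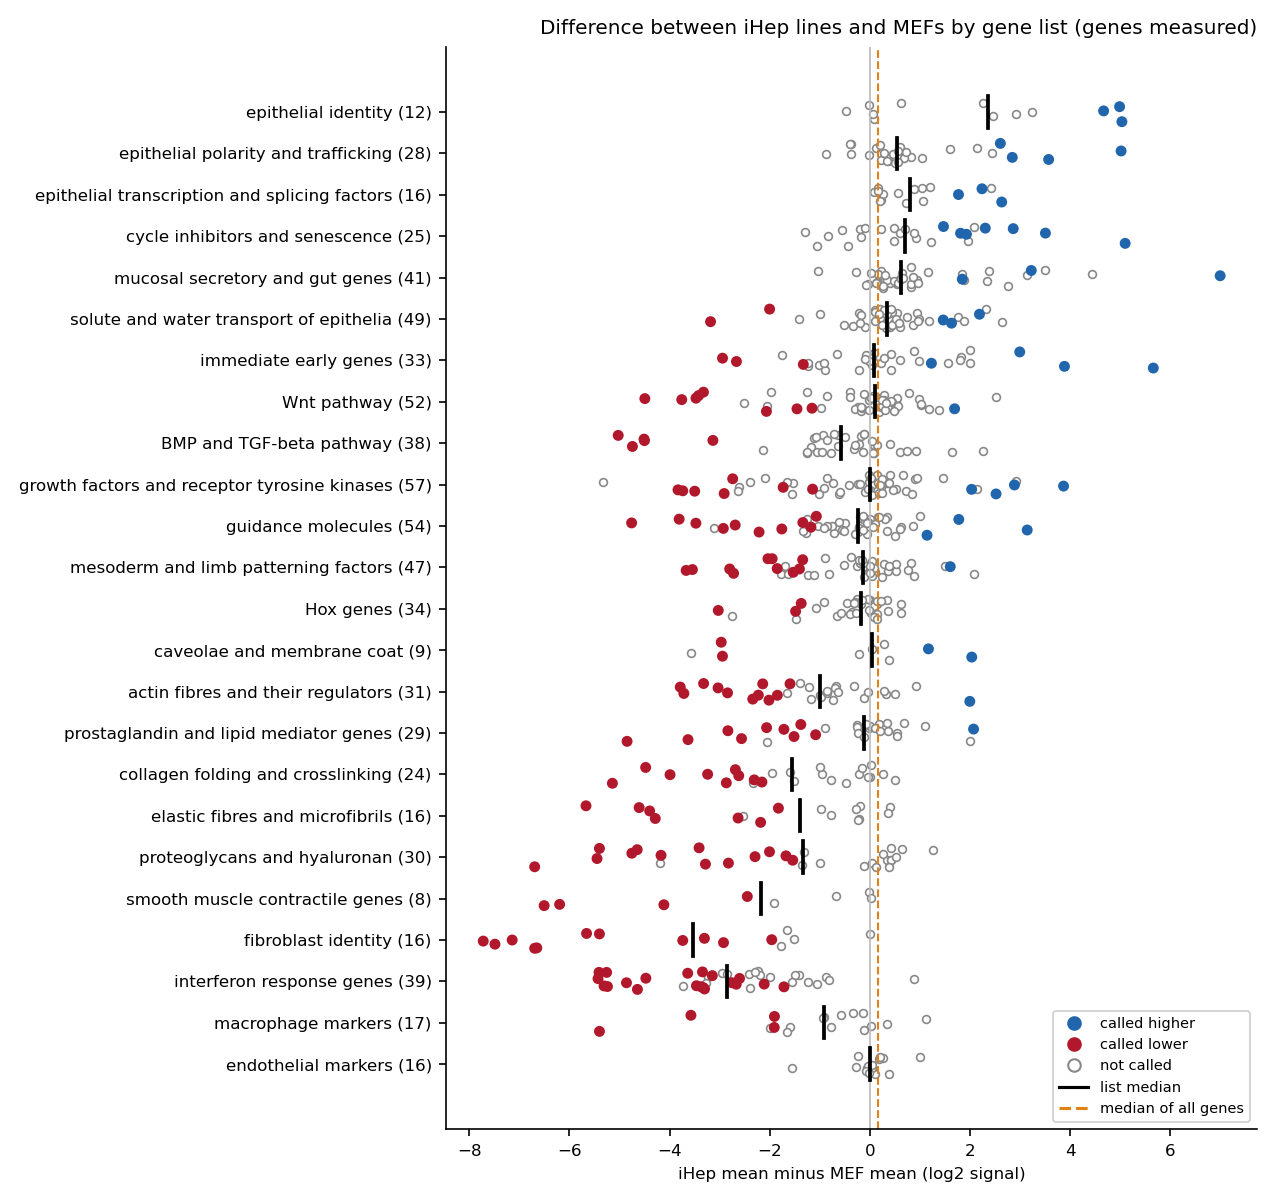
Difference of the iHep mean from the MEF mean for every measured member of 24 gene lists, 1 point per gene on the log2 scale, with the list median as a black bar and the median of all genes (0.16) as a dashed line. Filled points were called, and the fibroblast (median -3.52) and interferon (median -2.86) lists lie farthest to the left, the epithelial identity list (median 2.36) farthest to the right.

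The epithelial side was partial. Of 12 epithelial identity genes 3 rose and 0 fell, with a median of 2.36. These were simple keratins. Krt19 was at 4.97 and 6.03 in the MEFs and 10.05, 10.85 and 10.70 in the lines. Krt8 was at 4.35 and 5.71 in the MEFs and 8.00, 10.83 and 11.22 in the lines. Krt18 was at 3.80 and 6.39 in the MEFs and 9.55, 8.35 and 11.39 in the lines. The differences were 5.03, 4.99 and 4.67 (adjusted p = 0.00325, 0.0137 and 0.0217 in the same order), and MEF 2 was above MEF 1 for all 3. Cdh1, E-cadherin, was at 3.28 and 3.52 in the MEFs and 6.56, 9.47 and 3.89 in the lines and did not pass, with 4a3CK at the level of the PH arrays (8.94 to 9.63) and 4a1CK near the MEFs. Epcam, an adhesion molecule of progenitor epithelium, was at 6.61 and 6.33 in the MEFs and 6.76, 6.15 and 6.45 in the lines, with lines and MEFs overlapping, and the tight junction protein Ocln at 4.27 and 4.14 in the MEFs and 3.69, 3.68 and 3.80 in the lines. Dsp, a desmosomal plaque protein, was at 5.01 and 5.24 in the MEFs and 6.75, 7.59 and 9.78 in the lines and missed the threshold (adjusted p = 0.0545). The list gave 1 called gene without MEF 1 and 5 without 4a3 or without 4a1CK, 1 with only the 5 arrays or with the bacterial control block, and 2 with the deposition set as a block. Leaving out 1 array ended the calls of Krt8 (without MEF 1, adjusted p = 0.105) and Krt18 (without MEF 1 or 4a3, adjusted p = 0.0535 to 0.149). Both calls were also lost with only the 5 arrays and with the bacterial control block, and that of Krt18 with the deposition block.

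The promoters of Krt8 (chr15:102004293-102004592, minus strand) and Krt18 (chr15:102027966-102028265, plus strand) are shown because both genes rose and both hold the E-box CACCTG, the letters that Snail and Zeb repressors are known to bind. The windows run from 250 bases before to 50 bases after the transcription start in RefSeq on GRCm38.p6, 5' to 3', and the E-box is in capitals.
Krt8: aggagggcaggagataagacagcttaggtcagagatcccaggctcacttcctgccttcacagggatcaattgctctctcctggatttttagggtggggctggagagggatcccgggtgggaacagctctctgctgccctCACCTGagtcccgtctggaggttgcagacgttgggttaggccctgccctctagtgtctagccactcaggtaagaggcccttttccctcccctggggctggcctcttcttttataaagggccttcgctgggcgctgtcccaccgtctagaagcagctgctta
Krt18: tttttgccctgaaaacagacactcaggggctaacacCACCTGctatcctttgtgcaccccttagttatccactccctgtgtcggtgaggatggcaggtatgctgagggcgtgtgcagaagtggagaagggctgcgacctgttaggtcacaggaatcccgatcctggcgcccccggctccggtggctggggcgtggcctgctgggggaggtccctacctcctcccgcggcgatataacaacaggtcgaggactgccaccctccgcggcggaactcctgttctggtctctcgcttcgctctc
An E-box (CACCTG, either strand) was found in 8 of 9 epithelial identity genes with a window, Epcam, Ocln, Dsp and 3 others that did not pass included. The share over 13605 genes on the array was 22.9%, where any window of a gene could match. Over all 32851 single windows it was 20.2%. The Grainyhead core AACNGGTT was in 0 of these 9 genes, against 2.28% of genes on the array and 2.09% of windows. Among genes of epithelial polarity and trafficking it was in 2 of 20 with a window (10.0%). These were Cgn, 1 of 2 called genes, and Rab25, 1 of 18 not called. A match is one of letters in this window and no evidence of binding.

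Of 16 measured epithelial transcription and splicing factors 3 rose and 0 fell, although 14 had all lines above both MEF arrays, which 42.3% of all genes outside the programme had. Klf5, a zinc finger factor of gut and skin epithelium, was at 4.10 and 4.14 in the MEFs and 6.85, 6.33 and 7.09 in the lines. The means differed by 2.63 ± 0.29 (adjusted p = 0.00135). Rbm47, an RNA-binding splicing regulator, was at 4.51 and 4.58 in the MEFs and 7.09, 5.76 and 7.49 in the lines. Grhl1, a Grainyhead factor, was at 3.83 and 3.60 in the MEFs and 5.95, 5.49 and 5.02 in the lines. The differences were 2.24 for Rbm47 and 1.77 for Grhl1, and the list gave 1 called gene without MEF 1, MEF 2 or 4a3. The calls that ended were those of Rbm47 (without MEF 1, MEF 2 or 4a3, adjusted p = 0.08 to 0.139) and Grhl1 (without MEF 1, MEF 2 or 4a3, adjusted p = 0.0773 to 0.154). Of 28 genes of epithelial polarity and trafficking 4 rose and 0 fell. Beside Rab27b, Ezr, which ties microvilli to actin, was at 6.49 and 8.05 in the MEFs and 11.04, 10.51 and 10.97 in the lines. The tight junction protein Cgn was at 4.51 and 4.60 in the MEFs and 7.25, 8.25 and 6.70 in the lines. Mpp5, a scaffold of the Crumbs polarity complex, was at 5.32 and 4.93 in the MEFs and 8.36, 7.35 and 7.48 in the lines. Their differences were 3.57, 2.84 and 2.60, and the list gave 2 called genes without MEF 1 or without MEF 2, where the calls of Cgn (without MEF 1 or MEF 2, adjusted p = 0.0562 to 0.0717) and Mpp5 (without MEF 1, MEF 2 or 4a3, adjusted p = 0.0559 to 0.125) were lost. Of 11 epithelial membrane proteases and their inhibitors 0 were called, and 1 without 4a3.

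Of 41 mucosal and gut genes 30 had all lines above both MEF arrays, as did 42.3% of all genes outside the programme, and 3 (7.32%, against 1.95% over those genes) were called higher and 0 lower. The called genes were Tspan8, Vil1, the actin bundler of microvilli, and the endoderm factor Gata6. In limma Tspan8 was above PH (iHep minus PH 3.45, adjusted p = 0.0367). Gata6 did not differ from PH beyond the threshold (0.13, adjusted p = 0.909). Vil1 was at 3.84 and 3.90 in the MEFs and 6.27, 6.02 and 8.99 in the lines, with 4a1CK far above the other lines, and 1 gene of the list was called without MEF 1 or with the bacterial control block. Calls lost without 1 array were those of Vil1 (without MEF 1, MEF 2, 4a3, PH 1 or PH 2, adjusted p = 0.0517 to 0.191) and Gata6 (without MEF 1 or 4a1CK, adjusted p = 0.0627 to 0.185). Tff3, a secreted trefoil peptide, was at 4.49 and 4.54 in the MEFs and 10.64, 11.54 and 4.66 in the lines. Gkn2, a stomach protein, was at 4.23 and 4.16 in the MEFs and 4.63, 12.85 and 4.52 in the lines. Neither passed, and at least 1 line of each read within 0.5 of the MEFs.

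Among transcription factors that pattern the mesoderm and limb more fell than rose. Of 47 measured factors 10 fell (21.3%) and 1 rose (2.13%), with a median of -0.14, and 11 were dim on all 5 arrays. Ebf1, a factor of adipose and bone precursors, was at 7.62 and 6.20 in the MEFs and 3.25, 3.16 and 3.32 in the lines. The means were apart by -3.67 ± 0.41 (adjusted p = 0.00151). Shox2, a homeobox factor of the proximal limb, was at 7.95 and 6.72 in the MEFs and 3.82, 3.79 and 3.77 in the lines. The difference was -3.54 ± 0.34 (adjusted p = 0.000652). Both were dim in all lines. Foxc1, of paraxial mesoderm, was at 7.68 and 7.62 in the MEFs and 5.55, 4.29 and 4.95 in the lines. Osr1, of lateral mesoderm, was at 6.92 and 7.36 in the MEFs and 4.05, 3.95 and 5.01 in the lines. Tbx4, of the hindlimb, was at 5.83 and 5.18 in the MEFs and 3.48, 3.66 and 3.52 in the lines. All were lower in every line, with differences of -2.72, -2.80 and -1.95. The exception was Msx2, a target of BMP signalling, at 4.70 and 4.55 in the MEFs and 6.57, 5.42 and 6.72 in the lines, a difference of 1.60 ± 0.39 (adjusted p = 0.0456), a probe set whose call did not hold without most single arrays. Without MEF 2 the falls numbered 6, and single arrays ended the calls of Msx2 (without MEF 1, MEF 2, 4a3, 4a1CK, PH 1 or PH 2, adjusted p = 0.0775 to 0.231), Osr1 (without MEF 2, adjusted p = 0.0635) and Tbx4 (without MEF 1, adjusted p = 0.104). In the mean over all probe sets the calls of Msx2 (0.82, adjusted p = 0.173) and Tbx4 (-1.09, adjusted p = 0.058) were lost. Of 34 Hox genes, the factors of position along body and limb axes, 3 fell (8.82%, against 4.54% of all genes outside the programme) and 0 rose. The falls were those of Hoxd13 (-3.03), Hoxd10 (-1.48) and Hoxa11 (-1.37). The other probe set of Hoxd13 differed by 0.15 and the mean by -1.44, the Hox falls numbered 5 without PH 3, and the call of Hoxa11 (without MEF 1, 4a3CK, 4a1CK, PH 1 or PH 2, adjusted p = 0.0597 to 0.243) was lost. Hoxa10 was at 8.85 and 7.89 in the MEFs and 6.90, 5.96 and 3.98 in the lines and did not pass (adjusted p = 0.0626).

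Of 24 genes of collagen folding and crosslinking 9 fell and 0 rose, with a median of -1.55. Loxl1, a lysyl oxidase of elastic fibres, was at 10.21 and 9.51 in the MEFs and 4.08, 3.97 and 6.10 in the lines, a difference of -5.14 ± 0.65 (adjusted p = 0.00282), and Loxl3 was at 10.35 and 8.13 in the MEFs and 4.97, 4.64 and 4.68 in the lines. Lines minus MEFs came to -4.48 ± 0.55 (adjusted p = 0.00234). Loxl2 (-2.87), the collagen chaperone Serpinh1 (-2.69) and the lysyl hydroxylase Plod1 (-3.24) fell as well. Lox itself, the founding lysyl oxidase, was at 11.92 and 10.98 in the MEFs and 9.74, 6.30 and 11.28 in the lines and did not pass, with 4a1CK among the MEFs and 4a3CK far below them. Serpinh1 stayed above the PH level in the lines (iHep minus PH 1.57, adjusted p = 0.028). Averaged over probe sets Loxl1 differed by -3.24 and Plod1 by -1.62.

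Of 16 genes of elastic fibres and microfibrils 7 fell and 0 rose, or 3 without MEF 1. Fbln5, which assembles elastin, was at 10.91 and 9.36 in the MEFs and 4.36, 4.65 and 4.39 in the lines. The means differed by -5.67 ± 0.41 (adjusted p = 0.0002), whereas its other probe set differed by -0.14 and the mean over both by -2.91. Fbn2, a fibrillin of embryonic microfibrils, was at 8.70 and 8.90 in the MEFs and 4.20, 4.78 and 4.22 in the lines. The means were apart by -4.40 ± 0.27 (adjusted p = 0.000113). The MEF arrays differed for Fbln5 and hardly for Fbn2, and every line was below 5 for both. Of 30 proteoglycan and hyaluronan genes 13 fell and 0 rose, with a median of -1.34. Dcn, Lum, Aspn and Ogn, small leucine-rich proteoglycans that coat collagen fibrils, differed by -6.69, -5.40, -4.75 and -4.17. Ogn was at 8.39 and 8.57 in the MEFs and 3.80, 3.45 and 5.68 in the lines, with 4a1CK the highest line. Bgn, of the same family, was at 12.02 and 11.39 in the MEFs and 5.90, 5.26 and 11.38 in the lines and did not pass, with 4a1CK as high as MEF 2. In Col3a1 (12.26 and 11.85, then 3.83, 3.78 and 7.12) and Col5a2 (11.97 and 10.87, then 4.51, 4.57 and 8.20) too, 4a1CK was the line nearest to the MEFs, and the call of Col5a2 (without MEF 1, adjusted p = 0.102) was lost.

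Of 8 smooth muscle contractile genes 4 fell, 0 rose and 4 were not called. Acta2, smooth muscle actin, was at 12.12 and 11.90 in the MEFs and 5.41, 5.51 and 5.60 in the lines, a difference of -6.50 ± 0.54 (adjusted p = 0.000365). The probe set read here can bind several transcripts. Without such probe sets Acta2 was not called (-0.62, adjusted p = 0.278), and the mean over its probe sets was -3.56. The myosin light chain Myl9 was at 10.24 and 9.26 in the MEFs and 3.67, 3.50 and 3.48 in the lines. The difference was -6.20 ± 0.33 (adjusted p = 7.3e-05). The lines agreed within a narrow range for both and lay below PH (adjusted p = 0.00531 and 0.0191, differences -3.30 and -1.49). Of 31 genes of actin fibres and their regulators 11 fell, 1 rose and 19 were not called, with a median of -0.99, or 7 falls and 1 rise without MEF 2. The LIM proteins Pdlim7 (-3.71), Pdlim4 (-3.32), Csrp1 (-3.03) and Zyx (-2.84), the calponin Cnn2 (-2.34) and the actin crosslinker Palld (-3.79) fell. Pdlim7 was at 8.47 and 9.02 in the MEFs and 4.71, 5.23 and 5.15 in the lines with PH at 9.02, 8.76 and 8.55, so that the lines were below both cell types. The gene that rose was Fhl1, a LIM protein of muscle, at 8.93 and 9.90 in the MEFs and 11.51, 11.99 and 10.73 in the lines. Lines minus MEFs came to 2.00 ± 0.43 (adjusted p = 0.0297). That call was lost without MEF 1, 4a3 or PH 2, after quantile normalization, after subtracting medians, with only the 5 arrays and in each block. In the mean over all probe sets Fhl1 differed by 1.14 and the call of Zyx (-1.53, adjusted p = 0.119) was lost.

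The CArG box, the letters bound by serum response factor, was found in 1 of 5 smooth muscle genes and 6 of 28 actin genes with a window. The share was 1.65% of genes on the array and 1.63% of all windows. In the actin list it was in 2 of 10 called genes (20.0%) and in 4 of 18 not called (22.2%). The windows of the 3 called genes, Myl9 (chr2:156775214-156775513, plus strand), Cnn2 (chr10:79988350-79988649, plus strand) and Fhl1 (chrX:56779433-56779732, plus strand), are shown with the box in capitals, because Myl9 and Cnn2 fell and Fhl1 rose. Without 1 array the call of Cnn2 (without MEF 1 or MEF 2, adjusted p = 0.0789 to 0.0884) was lost.
Myl9: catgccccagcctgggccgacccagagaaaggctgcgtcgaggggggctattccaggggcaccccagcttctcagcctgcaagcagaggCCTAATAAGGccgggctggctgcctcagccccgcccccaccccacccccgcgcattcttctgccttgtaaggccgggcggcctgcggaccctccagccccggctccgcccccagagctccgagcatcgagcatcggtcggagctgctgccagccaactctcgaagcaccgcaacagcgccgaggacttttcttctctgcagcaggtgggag
Cnn2: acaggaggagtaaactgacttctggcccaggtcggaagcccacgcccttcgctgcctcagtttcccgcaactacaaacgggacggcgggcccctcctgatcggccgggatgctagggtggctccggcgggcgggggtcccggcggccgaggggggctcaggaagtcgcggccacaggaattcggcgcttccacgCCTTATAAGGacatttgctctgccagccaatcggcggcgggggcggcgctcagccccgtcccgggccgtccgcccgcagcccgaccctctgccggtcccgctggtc
Fhl1: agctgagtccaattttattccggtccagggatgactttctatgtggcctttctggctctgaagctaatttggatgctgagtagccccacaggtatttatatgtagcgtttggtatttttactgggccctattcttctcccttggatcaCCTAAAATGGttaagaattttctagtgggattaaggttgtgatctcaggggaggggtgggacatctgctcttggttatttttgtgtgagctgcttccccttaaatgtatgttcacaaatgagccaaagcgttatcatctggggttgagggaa

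Caveolae, small membrane pits of fibroblasts and endothelium, changed in mixed directions, with 2 of 9 genes higher and 2 lower. Cav2 was at 7.91 and 8.27 in the MEFs and 9.69, 10.34 and 10.35 in the lines. The means differed by 2.03 ± 0.28 (adjusted p = 0.00428), but its other probe set by 0.14. Cavin3, a coat protein, was at 7.84 and 7.93 in the MEFs and 4.94, 5.71 and 4.10 in the lines. The means were apart by -2.97 ± 0.51 (adjusted p = 0.0121). The ATPase Ehd2 was at 9.05 and 8.79 in the MEFs and 5.68, 5.74 and 6.53 in the lines, although 1 of its 3 probe sets differed by 0.27. Cav1 was at 10.21 and 10.97 in the MEFs and 9.69, 11.75 and 11.49 in the lines, with lines on both sides of the MEFs. Cavin2 was at 9.78 and 9.23 in the MEFs and 4.36, 4.15 and 9.28 in the lines, where 4a1CK alone was at the MEF level. Neither passed. Without MEF 1, or without MEF 2, the list gave 1 rise and 1 fall, and the call of Cavin3 (without MEF 1 or MEF 2, adjusted p = 0.0716 to 0.074) was lost. The mean over probe sets ended the calls of Cav2 (1.09, adjusted p = 0.067) and Ehd2 (-0.85, adjusted p = 0.0838). Of 23 targets and members of the YAP and TEAD pathway, which reads tension of the actin skeleton, 5 fell and 0 rose, or 3 falls without MEF 1 or without MEF 2. Igfbp3 (-5.62), Ankrd1 (-3.01) and the TEAD factor Tead2 (-2.91) were among them, of which the call of Tead2 (without MEF 2, adjusted p = 0.108) was lost. Ankrd1 was at 5.95 and 8.07 in the MEFs and 4.00, 3.96 and 4.03 in the lines, with PH at 8.86, 8.51 and 9.43, and differed by -1.95 without MEF 2. The standard target Ccn2 was at 10.51 and 11.36 in the MEFs and 8.87, 10.56 and 8.08 in the lines and did not pass, with line 4a3CK inside the range of the MEFs. The TEAD letters GGAATG stood in 2 of 5 called and 8 of 12 not called genes with a window. The share was 15.3% of genes on the array and 14.7% of all windows.

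A ligand, secreted antagonists and receptors were among the Wnt genes that fell. Of 52 measured genes of the Wnt pathway 8 fell (15.4%) and 1 rose (1.92%), with a median of 0.10 against 0.16 over all genes. Wnt5a, a noncanonical ligand of mesenchyme, was at 8.73 and 9.07 in the MEFs and 4.41, 5.07 and 3.73 in the lines. The difference was -4.49 ± 0.38 (adjusted p = 0.000415). Dkk2, a secreted antagonist, was at 7.12 and 6.94 in the MEFs and 3.33, 3.30 and 3.19 in the lines, a difference of -3.76 ± 0.27 (adjusted p = 0.000209), and the decoy receptors Sfrp2 and Sfrp1 differed by -3.47 and -3.42. The receptors Fzd2 (-3.32) and Fzd7 (-2.07) fell too, the latter on 1 of 2 probe sets (0.14 on the other). Lgr4, the R-spondin receptor, was at 8.04 and 8.54 in the MEFs and 9.95, 9.94 and 10.05 in the lines. It rose by 1.69 on 1 of its 2 probe sets, the other giving -0.02. The falls numbered 5 without MEF 1, and calls lost without 1 array were those of Lgr4 (without MEF 1, MEF 2, 4a3 or 4a1CK, adjusted p = 0.0548 to 0.16) and Fzd7 (without MEF 1, MEF 2, 4a3, 4a3CK or PH 2, adjusted p = 0.0507 to 0.2). Averaged over probe sets Lgr4 (0.84, adjusted p = 0.131) and Fzd7 (-0.96, adjusted p = 0.168) were not called. The ligand Wnt4 was at 4.11 and 5.52 in the MEFs and 9.51, 8.10 and 4.37 in the lines, high in 2 lines and at the MEF level in 4a1CK, and did not pass.

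Of 38 genes of the BMP and TGF-beta pathway 5 fell (13.2%) and 0 rose, with a median of -0.57, or 3 falls without MEF 2. All 5 were secreted. Tgfb3, a ligand, was at 9.60 and 8.87 in the MEFs and 4.85, 4.78 and 4.54 in the lines. Lines minus MEFs came to -4.51 ± 0.27 (adjusted p = 0.000108). The BMP antagonist Grem1 was at 8.77 and 7.44 in the MEFs and 3.60, 3.51 and 3.69 in the lines. The means differed by -4.50 ± 0.36 (adjusted p = 0.000315). Both were dim or nearly so in each line. Fst, which binds activin, was at 9.10 and 9.56 in the MEFs and 3.78, 6.04 and 3.95 in the lines, where 4a3CK kept an intermediate level, and the activin subunit Inhba at 9.20 and 9.99 in the MEFs and 6.60, 6.29 and 6.49 in the lines, with a second probe set at 0.17. Fstl1, a secreted glycoprotein, had one of the widest ranges among the lines, at 11.79 and 11.33 in the MEFs and 4.40, 6.35 and 8.85 in the lines. The means were apart by -5.03 ± 1.08 (adjusted p = 0.0298). Single arrays ended the calls of Inhba (without MEF 2, adjusted p = 0.0911) and Fstl1 (without MEF 1, MEF 2, PH 1 or PH 2, adjusted p = 0.0511 to 0.164). Id1, a target of BMP signalling, was at 7.40 and 9.66 in the MEFs and 10.91, 10.89 and 10.57 in the lines and did not pass (adjusted p = 0.0633). Of 30 Hedgehog and Notch genes 2 rose (6.67%) and 3 fell (10.0%), against 1.95% and 4.54% of all genes outside the programme. The Hedgehog transducers Smo (-1.44) and Gli2 (-2.02) and the coreceptor Cdon (-2.69, with 0.04 on a second probe set) fell, and Nrarp (1.43) and Hes6 (2.07) rose. Hes1, of the same list, did not pass (1.19, adjusted p = 0.179). None of the 3 falls was called without MEF 1 or without MEF 2, and the lost calls were those of Smo (without MEF 1 or MEF 2, adjusted p = 0.0513 to 0.0897), Gli2 (without MEF 1 or MEF 2, adjusted p = 0.0735 to 0.0939), Cdon (without MEF 1 or MEF 2, adjusted p = 0.0635 to 0.0833), Nrarp (without MEF 1, MEF 2, 4a3CK, 4a1CK, PH 1 or PH 2, adjusted p = 0.0531 to 0.197) and Hes6 (without MEF 2, adjusted p = 0.0897). The falls numbered 5 without PH 3 and the rises 0 without MEF 2. Means over probe sets were -1.31 for Gli2 and -1.33 for Cdon, and Inhba (-1.48, adjusted p = 0.0601) and Nrarp (1.01, adjusted p = 0.0655) lost the call there.

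**Figure D3:**
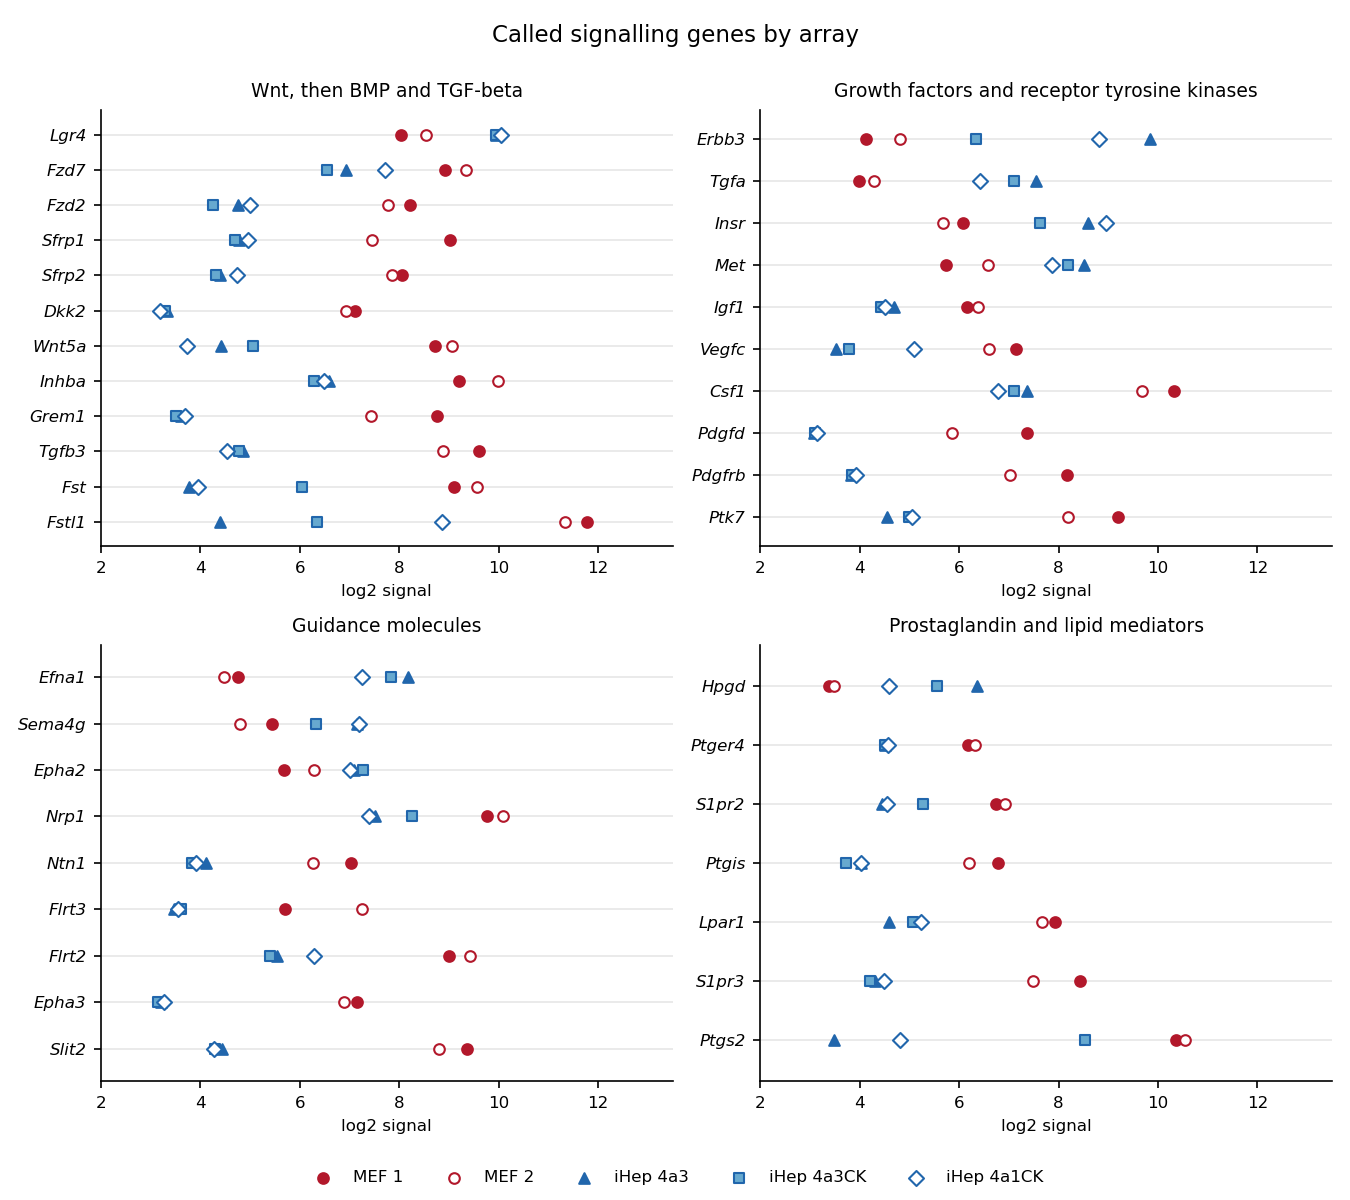
Log2 signal on each MEF array and iHep line for the called genes of 5 signalling lists in 4 panels, at most 6 per list and direction. Fstl1 (4.40 to 8.85) and Ptgs2 (3.49 to 8.53) have the widest spread among the lines.

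Growth factors and receptor tyrosine kinases moved both ways, with 4 of 57 higher (7.02%), 7 lower (12.3%) and a median of 0.00. The rises were receptors and a ligand that epithelium uses. Met, the receptor of HGF, was at 5.74 and 6.58 in the MEFs and 8.52, 8.19 and 7.87 in the lines, a difference of 2.03 ± 0.33 (adjusted p = 0.00918), and the medium of the lines holds HGF. Erbb3, a partner of the EGF receptor, was at 4.12 and 4.81 in the MEFs and 9.83, 6.34 and 8.82 in the lines, a difference of 3.87 ± 0.94 (adjusted p = 0.0476). Tgfa, a ligand of the EGF receptor, was at 3.99 and 4.29 in the MEFs and 7.55, 7.11 and 6.41 in the lines. The difference was 2.89 ± 0.44 (adjusted p = 0.00724). The insulin receptor Insr was at 6.07 and 5.67 in the MEFs and 8.59, 7.63 and 8.95 in the lines. Line 4a3CK was the lowest for Erbb3 and Insr. Without MEF 1 none of the 4 was called, without MEF 2, 4a3 or 4a1CK 2 of the list were, and without 4a3CK 7 were. Single arrays ended the calls of Met (without MEF 1, adjusted p = 0.0787), Erbb3 (without MEF 1, MEF 2, 4a3, 4a1CK, PH 1 or PH 2, adjusted p = 0.0687 to 0.245), Tgfa (without MEF 1, adjusted p = 0.0605) and Insr (without MEF 1, MEF 2, 4a3 or 4a1CK, adjusted p = 0.0791 to 0.193). The named falls were receptors and ligands as well. The PDGF receptor Pdgfrb was at 8.17 and 7.03 in the MEFs and 3.83, 3.84 and 3.92 in the lines, a difference of -3.74 ± 0.32 (adjusted p = 0.000424). Its ligand Pdgfd was at 7.36 and 5.85 in the MEFs and 3.09, 3.10 and 3.14 in the lines. Lines minus MEFs came to -3.50 ± 0.39 (adjusted p = 0.00147). Ptk7, a receptor-like pseudokinase of planar polarity, differed by -3.83, the macrophage growth factor Csf1 by -2.91, the lymphatic factor Vegfc by -2.74 and Igf1 by -1.73. For Csf1 and Igf1 the lines were also below PH (iHep minus PH -2.53 and -3.30, adjusted p = 0.00137 and 0.000535). The falls numbered 4 without MEF 1, and the calls of Vegfc (without MEF 1, adjusted p = 0.0794) and Igf1 (without MEF 1, MEF 2, 4a3 or 4a1CK, adjusted p = 0.0528 to 0.139) were lost. The mean over probe sets ended the calls of Tgfa (1.15, adjusted p = 0.0739) and Insr (0.99, adjusted p = 0.164) and came to 1.20 for Met, 2.22 for Erbb3, -2.16 for Pdgfd and -1.82 for Csf1. Without probe sets for several transcripts Igf1 differed by -2.97. Igf2, a fetal growth factor, was at 11.37 and 11.93 in the MEFs and 10.34, 4.20 and 4.44 in the lines and did not pass, with 4a3 alone near the MEF level.

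Guidance molecules, the repellents and attractants of migrating cells and axons, fell in 10 (18.5%) and rose in 3 (5.56%) of 54 genes, with a median of -0.23. Slit2, a secreted repellent, was at 9.37 and 8.80 in the MEFs and 4.42, 4.30 and 4.27 in the lines, a difference of -4.76 ± 0.54 (adjusted p = 0.00158). Its receptor Robo1 was at 6.03 and 6.37 in the MEFs and 3.25, 3.25 and 2.76 in the lines, which did not pass (adjusted p = 0.14) although each line was below both MEF arrays. PH 3 read 7.82 for Robo1, against 3.89 and 3.63 for PH 1 and 2. Epha3, an ephrin receptor of mesenchyme, was at 7.15 and 6.89 in the MEFs and 3.21, 3.15 and 3.27 in the lines, a difference of -3.81 ± 0.25 (adjusted p = 0.00012), with 1 of 4 probe sets at 0.04. Flrt2 and Flrt3 (-3.48 and -2.93), the neuropilin Nrp1 (-2.21) and Ntn1 (-2.69, 0.47 on its other probe set) were lower as well. In the other direction the ligand Efna1 was at 4.76 and 4.47 in the MEFs and 8.18, 7.83 and 7.25 in the lines, a difference of 3.14 ± 0.47 (adjusted p = 0.00636). Epha2, an ephrin receptor of epithelium, was at 5.69 and 6.28 in the MEFs and 7.09, 7.28 and 7.01 in the lines. The means differed by 1.14 ± 0.25 (adjusted p = 0.0316). Efna1 was called under each alternative (lowest difference 1.72, with the bacterial control block), whereas the rises numbered 1 without MEF 1, 4a3 or 4a1CK and the call of Epha2 (without MEF 1, 4a3, 4a3CK, 4a1CK, PH 1 or PH 2, adjusted p = 0.0584 to 0.259) was lost. Averaged over probe sets Slit2 differed by -2.48 and Epha3 by -2.26, and the call of Ntn1 (-1.11, adjusted p = 0.0815) was lost.

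Of 29 enzymes and receptors of lipid mediators 9 fell, 1 rose and 19 were not called, with a median of -0.12 against 0.16 over all genes. Ptgs2, the inducible cyclooxygenase, was at 10.37 and 10.55 in the MEFs and 3.49, 8.53 and 4.81 in the lines. The means were apart by -4.85 ± 1.18 (adjusted p = 0.0471). Line 4a3CK kept a high level while 4a3 was at the background. Ptgis, prostacyclin synthase, was at 6.77 and 6.20 in the MEFs and 4.03, 3.72 and 4.01 in the lines, and the prostaglandin receptor Ptger4 at 6.17 and 6.31 in the MEFs and 4.51, 4.50 and 4.57 in the lines. The receptors of sphingosine phosphate S1pr3 and S1pr2 and of lysophosphatidic acid Lpar1 differed by -3.63, -2.06 and -2.84, and for S1pr3 the values were 8.43 and 7.49 in the MEFs and 4.30, 4.21 and 4.48 in the lines. The lines lay within 1 unit of each other for each of these receptors. Hpgd, which breaks prostaglandins down, rose, at 3.37 and 3.48 in the MEFs and 6.36, 5.54 and 4.58 in the lines. The difference was 2.07 ± 0.47 (adjusted p = 0.0375). The list gave 5 falls without MEF 1 and 4 without MEF 2, and calls lost without 1 array were those of Ptgs2 (without MEF 1, MEF 2, 4a3, 4a1CK, PH 1, PH 2 or PH 3, adjusted p = 0.0522 to 0.209), Lpar1 (without MEF 1 or MEF 2, adjusted p = 0.0672 to 0.099) and Hpgd (without MEF 1, MEF 2, 4a3, 4a3CK, PH 1 or PH 2, adjusted p = 0.054 to 0.189). Hpgd was not called without probe sets for several transcripts (0.31, adjusted p = 0.456), and in the mean over probe sets Hpgd, Ptger4 and S1pr3 differed by 1.19, -1.06 and -2.12.

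Of 39 interferon response genes 20 fell, 0 rose and 32 had all lines below both MEF arrays, which 18.6% of all genes outside the programme had. The median difference was -2.86. Usp18, which limits interferon signalling, was at 10.23 and 8.70 in the MEFs and 4.42, 4.03 and 4.01 in the lines. Lines minus MEFs came to -5.31 ± 0.44 (adjusted p = 0.000381). Rtp4, a receptor transporter, was at 10.35 and 9.01 in the MEFs and 4.53, 4.08 and 4.19 in the lines, a difference of -5.41 ± 0.46 (adjusted p = 0.000419), with a second probe set at 0.14 and the mean of both at -2.63. Ifit3 was at 10.81 and 7.63 in the MEFs and 3.94, 4.01 and 3.94 in the lines, a difference of -5.26 ± 0.85 (adjusted p = 0.00938), and shares sequence with a close copy that these probes may also read. The lines were dim for all 3, and MEF 1 was above MEF 2 in each. Usp18 and Rtp4 were also far below PH (iHep minus PH -4.95 and -4.94, adjusted p = 0.000243 and 0.000316), whereas Ifit3 did not differ from PH beyond the threshold (adjusted p = 0.242, difference -1.73).

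The size of the interferon difference depended on the MEF array. Gbp2, a guanylate-binding GTPase, was at 10.36 and 6.31 in the MEFs and 3.14, 3.06 and 3.09 in the lines, a difference of -5.24, or of -3.22 without MEF 1. Iigp1, an immunity-related GTPase, was at 10.71 and 4.99 in the MEFs and 4.21, 4.04 and 4.09 in the lines. For Iigp1 MEF 2 lay within 1 unit of the lines and the gene did not pass. Without MEF 1 there were 10 called genes, without MEF 2 33, without 4a3 10, without 4a1CK 12, without PH 1 12 and without PH 2 14. With the bacterial control block 8 were called. In antigen presentation by class I molecules, which interferon also drives, 2 of 19 genes fell (10.5%) and 1 rose (5.26%). These were Psmb10 (-2.77), Tapbp (-2.45) and H2-Q10 (1.55), the last of a family of near-identical genes. None of these 3 calls held without 4a3, and single arrays ended the calls of Psmb10 (without MEF 1, 4a3 or 4a1CK, adjusted p = 0.0584 to 0.181), Tapbp (without MEF 1, 4a3, 4a1CK, PH 1 or PH 2, adjusted p = 0.0578 to 0.135) and H2-Q10 (without MEF 1, MEF 2, 4a3, 4a3CK, PH 1 or PH 2, adjusted p = 0.0615 to 0.225). Without MEF 2 the list gave 5 falls, and in the mean over probe sets the call of Tapbp (-1.73, adjusted p = 0.0881) was lost.

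**Figure D4:**
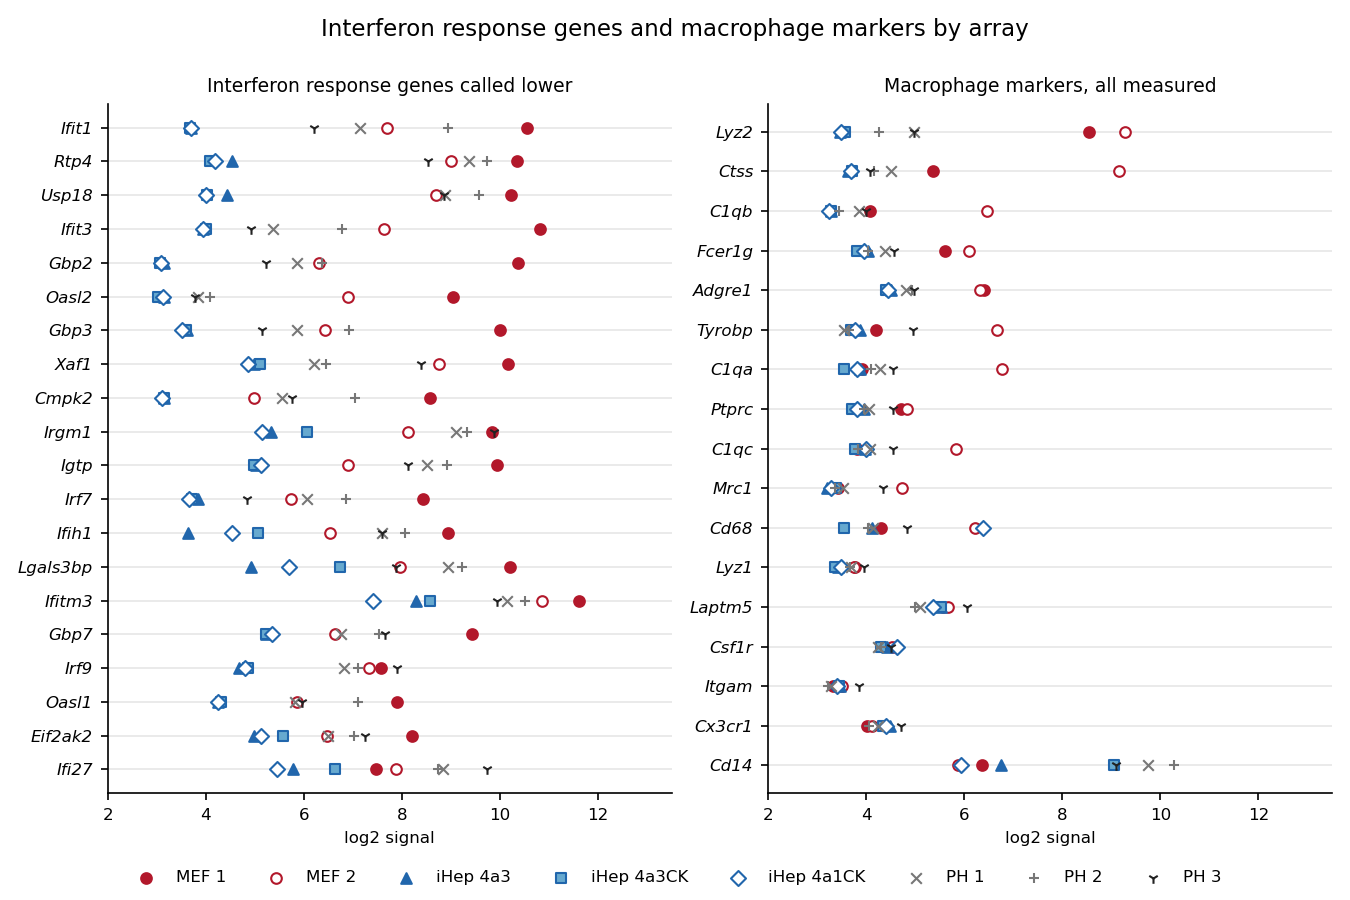
Log2 signal on all 8 arrays for the 20 interferon response genes called lower (left) and all 17 measured macrophage markers (right), with MEFs in red, lines in blue and PH in grey or black. MEF 1 exceeds MEF 2 for 19 of the 20 interferon genes, all but Ifi27, whereas MEF 2 exceeds MEF 1 for markers such as Ctss (9.15 against 5.36) and C1qa (6.77 against 3.92).

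The interferon-stimulated response element was searched as a pair of GAAA with 2 bases between them on either strand. It was in 16 of 28 interferon genes with a window (57.1%), against 3.59% of genes on the array and 3.44% of all windows. It was in 10 of 17 called genes (58.8%) and in 6 of 11 not called (54.5%). The windows of Ifit3 (chr19:34583279-34583578, plus strand), Gbp3 (chr3:142559794-142560093, plus strand) and Igtp (chr11:58199306-58199605, plus strand) are shown with the element in capitals as called genes of 3 families, of which Gbp3 (-4.64) and Igtp (-3.38) were chosen after their values were seen. In Gbp3 a pair of matches overlaps.
Ifit3: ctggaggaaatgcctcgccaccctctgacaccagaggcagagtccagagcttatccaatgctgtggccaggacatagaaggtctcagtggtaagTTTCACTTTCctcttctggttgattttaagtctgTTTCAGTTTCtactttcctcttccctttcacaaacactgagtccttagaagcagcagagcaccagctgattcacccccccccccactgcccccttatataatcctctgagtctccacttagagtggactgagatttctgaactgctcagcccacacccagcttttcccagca
Gbp3: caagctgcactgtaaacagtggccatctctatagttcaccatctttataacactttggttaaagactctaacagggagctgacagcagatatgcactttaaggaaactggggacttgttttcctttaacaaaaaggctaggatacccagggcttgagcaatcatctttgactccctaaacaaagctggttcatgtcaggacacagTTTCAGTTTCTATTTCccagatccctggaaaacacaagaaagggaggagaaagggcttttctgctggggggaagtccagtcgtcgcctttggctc
Igtp: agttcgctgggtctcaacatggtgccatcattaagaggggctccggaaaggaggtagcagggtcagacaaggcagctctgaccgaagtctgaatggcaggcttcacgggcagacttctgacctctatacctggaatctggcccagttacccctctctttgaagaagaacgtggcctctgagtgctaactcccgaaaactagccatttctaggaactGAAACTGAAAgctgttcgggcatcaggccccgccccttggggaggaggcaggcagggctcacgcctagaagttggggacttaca

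Markers of macrophages were measured because embryonic cultures can hold such cells. Of 17 measured 4 fell and 0 rose, with a median of -0.91, and 8 fell without MEF 1. The median marker was at 4.31 and 5.88 in the MEFs and 3.96, 3.71 and 3.82 in the lines. Lyz2, lysozyme, was at 8.54 and 9.28 in the MEFs and 3.46, 3.57 and 3.50 in the lines, a difference of -5.40 ± 0.31 (adjusted p = 0.000102). Ctss, a lysosomal protease, was at 5.36 and 9.15 in the MEFs and 3.64, 3.72 and 3.69 in the lines, a difference of -3.57, or of -5.47 without MEF 1 and -1.68 without MEF 2. Adgre1, the F4/80 antigen, was at 6.40 and 6.33 in the MEFs and 4.51, 4.42 and 4.45 in the lines. C1qb was at 4.08 and 6.46 in the MEFs and 3.30, 3.28 and 3.25 in the lines. Tyrobp was at 4.20 and 6.68 in the MEFs and 3.87, 3.69 and 3.78 in the lines, so that MEF 2 alone was above the lines by over 2 units. Of the 17 markers 11 had all lines below both MEF arrays, 1 had all lines above and 5 overlapped. Cd14 (6.37 and 5.88, then 6.76, 9.06 and 5.93) had the higher mean in the lines. Cd68 (4.31 and 6.23, then 4.13, 3.56 and 6.39) was above both MEF arrays in 4a1CK. Neither passed. The defining markers Csf1r (4.62 and 4.54, then 4.43, 4.31 and 4.63) and Itgam (3.34 and 3.51, then 3.47, 3.45 and 3.42) were within 0.4 of each other on all 5 arrays, near the dim level or below it. In bulk RNA fewer cells of a type and less RNA per cell cannot be told apart, and the part of such cells in the falls above was not tested. MEF 2 also read higher for the muscle genes Actc1 (4.57 and 7.63, then 4.30, 4.20 and 4.09) and Mylpf (4.26 and 7.10, then 4.71, 4.92 and 4.85). Of the other marker lists, 0 of 20 skeletal muscle, 0 of 16 endothelial and 0 of 8 blood genes were called, and Gap43 (-4.09) was the only one of 16 neural genes. Without MEF 1, 3 skeletal muscle and 3 neural genes were lower, and with the deposition set as a block 3 and 2. The bacterial control block gave 1 and 4, and without 4a3CK 1 muscle gene was higher. Of 18 cartilage and bone genes 2 fell, Col11a1 (-3.99) and Col2a1 (5.33 and 8.13, then 4.07, 3.90 and 3.88), or 1 without MEF 2, any 1 line, PH 1 or PH 2, and of the calls in these lists single arrays ended the calls of Ctss (without 4a3, 4a3CK, 4a1CK, PH 1, PH 2 or PH 3, adjusted p = 0.0506 to 0.114) and Col2a1 (without MEF 2, 4a3, 4a3CK, 4a1CK, PH 1 or PH 2, adjusted p = 0.0675 to 0.129).

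Of 25 brakes of the cell cycle and targets of p53 7 rose and 0 fell, with a median of 0.70. Perp, a p53 target of desmosomes, was at 3.67 and 7.14 in the MEFs and 11.16, 9.94 and 10.42 in the lines, a difference of 5.10 ± 0.87 (adjusted p = 0.0124). Cdkn2a, the locus of Ink4a and Arf, was at 7.13 and 3.59 in the MEFs and 9.10, 8.74 and 8.76 in the lines. The means differed by 3.50 ± 0.82 (adjusted p = 0.0417), or by 5.28 without MEF 1 and 1.73 without MEF 2, and for Perp by 3.36 without MEF 1. The MEF arrays differed by more than 3 units in both, in opposite directions. The retinoblastoma gene Rb1 was at 5.94 and 6.24 in the MEFs and 8.54, 7.62 and 7.89 in the lines. Btg2, an antiproliferative target of p53, was at 8.31 and 7.45 in the MEFs and 10.95, 10.74 and 10.54 in the lines. Trp53inp1, another p53 target, was at 9.47 and 8.57 in the MEFs and 11.62, 11.20 and 11.16 in the lines. Their differences were 1.93, 2.86 and 2.30, and Gadd45a, of the DNA damage response, differed by 1.81. The kinase inhibitor Cdkn1b was at 8.01 and 6.76 in the MEFs and 9.53, 9.17 and 9.34 in the lines and missed the threshold (adjusted p = 0.0541). The list gave 3 called genes without MEF 1, 2 without MEF 2, 3 without 4a3, 4 without PH 1 and 1 with the bacterial control block. Calls lost without 1 array were those of Cdkn2a (without 4a3, 4a3CK, 4a1CK, PH 1 or PH 2, adjusted p = 0.0536 to 0.111), Rb1 (without MEF 1 or MEF 2, adjusted p = 0.0557 to 0.107), Btg2 (without MEF 1, MEF 2, 4a3, 4a3CK, 4a1CK or PH 1, adjusted p = 0.0555 to 0.253), Trp53inp1 (without MEF 2, adjusted p = 0.0884) and Gadd45a (without MEF 1, MEF 2, 4a3, 4a3CK, PH 1 or PH 2, adjusted p = 0.0521 to 0.254). Of 39 cyclin, E2F and mitosis genes 3 fell (7.69%, against 4.54% of all genes outside the programme) and 0 rose, with a median of -0.03. These were Cdk2 (-1.20), the replication helicase subunit Mcm5 (-2.44, 0.22 on another probe set) and Ccnd3 (-1.02, 1.22 on another), and 0 of the 39 were lower without MEF 2, 4a3, 4a1CK, PH 1 or PH 2. Their calls were lost for Cdk2 (without MEF 2, 4a3, 4a1CK, PH 1 or PH 2, adjusted p = 0.0652 to 0.284), Mcm5 (without MEF 2, 4a3, 4a1CK, PH 1 or PH 2, adjusted p = 0.0503 to 0.212) and Ccnd3 (without MEF 1, MEF 2, 4a3, 4a1CK, PH 1 or PH 2, adjusted p = 0.0749 to 0.253). In the mean over probe sets Ccnd3 differed by 0.10 and Rb1 (1.10, adjusted p = 0.0532) and Mcm5 (-1.11, adjusted p = 0.0941) lost the call.

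Immediate early genes moved both ways, with 4 of 33 higher (12.1%) and 3 lower (9.09%). Fos was at 5.50 and 9.10 in the MEFs and 11.63, 10.72 and 11.21 in the lines, a difference of 3.88 ± 0.95 (adjusted p = 0.0471). Fosb was at 3.79 and 4.34 in the MEFs and 7.49, 6.59 and 7.09 in the lines. The means were apart by 2.99 ± 0.33 (adjusted p = 0.00147). Both code for AP-1 subunits. Fosb was dim on both MEF arrays and was called under each alternative, whereas MEF 2 was above MEF 1 by more than 3 for Fos. Spry4 and Etv5, which respond to FGF and ERK signalling, differed by -2.94 and -2.67, with Spry4 at 5.36 and 7.39 in the MEFs and 3.27, 3.69 and 3.34 in the lines, and the AP-1 subunit Fosl2 differed by -1.33. The rises ranged from 2 to 6 and the falls from 1 to 7 with single arrays left out, with the fewest rises (2) without MEF 1 or 4a3 and the fewest falls (1) without MEF 2 or 4a3. Calls lost without 1 array were those of Fos (without MEF 1, 4a3, 4a1CK, PH 1 or PH 2, adjusted p = 0.0688 to 0.205), Spry4 (without MEF 2 or 4a3, adjusted p = 0.0567 to 0.075) and Fosl2 (without MEF 1, MEF 2, 4a3 or 4a1CK, adjusted p = 0.059 to 0.193). The mean over probe sets ended the calls of Spry4 (-0.90, adjusted p = 0.101) and Fosl2 (-0.83, adjusted p = 0.0914).

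Other lists held a few called genes each. Among annexins, S100 proteins and galectins, which bind calcium or sugars, Anxa8 rose, at 6.33 and 8.55 in the MEFs and 11.36, 11.46 and 10.55 in the lines, a difference of 3.68 ± 0.61 (adjusted p = 0.0104), and was far above PH (iHep minus PH 6.73, adjusted p = 0.000246). S100a4, a calcium-binding protein of motile mesenchyme, differed by -2.92 from the MEFs and was above PH (2.85, adjusted p = 0.0104). Of 49 genes of epithelial transport 3 rose, the drug exporters Abcb1a (2.19) and Abcc3 (1.46) and the potassium channel Kcnk5 (1.63), and 2 fell, the water channel Aqp1 (-3.18) and the anion exchanger Slc4a2 (-2.00). The rises were 6.12% and the falls 4.08%, against 1.95% and 4.54% of all genes outside the programme. Without MEF 1 or without MEF 2 none of the 3 rises was called, and the calls were lost for Abcb1a (without MEF 1 or MEF 2, adjusted p = 0.0546 to 0.0806), Abcc3 (without MEF 1, MEF 2 or 4a3, adjusted p = 0.0646 to 0.121) and Kcnk5 (without MEF 1, MEF 2, 4a1CK, PH 1 or PH 2, adjusted p = 0.0616 to 0.198). Of 28 genes of serine, one-carbon and ATF4 metabolism 2 rose (7.14%) and 3 fell (10.7%). The stress-responsive ATF factors Atf3, at 5.18 and 5.98 in the MEFs and 9.17, 8.60 and 7.40 in the lines, and Atf5, at 9.03 and 8.18 in the MEFs and 5.79, 6.04 and 5.55 in the lines, went opposite ways (2.81 and -2.81). That list gave 1 to 4 rises and 1 to 3 falls with 1 array left out, fewest rises without MEF 1 or MEF 2 and fewest falls without MEF 1, 4a3, 4a1CK, PH 1 or PH 2. Of 41 chromatin regulators 2 rose (4.88%), led by the Polycomb protein Cbx7 (2.30), and 6 fell (14.6%), led by the nucleosome-binding Hmgn3 (-3.13) and the remodeller Chd3 (-2.56). There were 3 falls and 0 rises without MEF 1 and 2 falls and 1 rise without MEF 2 or 4a3. In this group of lists single arrays ended the calls of S100a4 (without MEF 1 or MEF 2, adjusted p = 0.055 to 0.124), Atf3 (without MEF 1, adjusted p = 0.141), Cbx7 (without MEF 1 or MEF 2, adjusted p = 0.0789 to 0.0906) and Hmgn3 (without MEF 1 or 4a3, adjusted p = 0.0509 to 0.133). Averaged over probe sets Kcnk5 (1.00, adjusted p = 0.112) and Cbx7 (0.88, adjusted p = 0.147) were not called.

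The lines differed from each other more in the genes that rose than in those that fell. The median range among the lines was 0.41 for genes called lower and 0.75 for genes called higher, and the MEF pair differed by a median of 0.44 and 0.27 for the same genes. The part of the dim level of 297 lower genes in the narrower range was not tested. Line 4a3 was the farthest from the MEFs in 309 of the 757 lower genes (4a3CK 228, 4a1CK 220) and in 137 of the 325 higher genes (4a3CK 74, 4a1CK 114). Taken alone and with no test, 278 genes in 4a3, 289 in 4a3CK and 274 in 4a1CK were at least 2 above both MEF arrays, and 398, 347 and 378 at least 2 below.

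**Figure D5:**
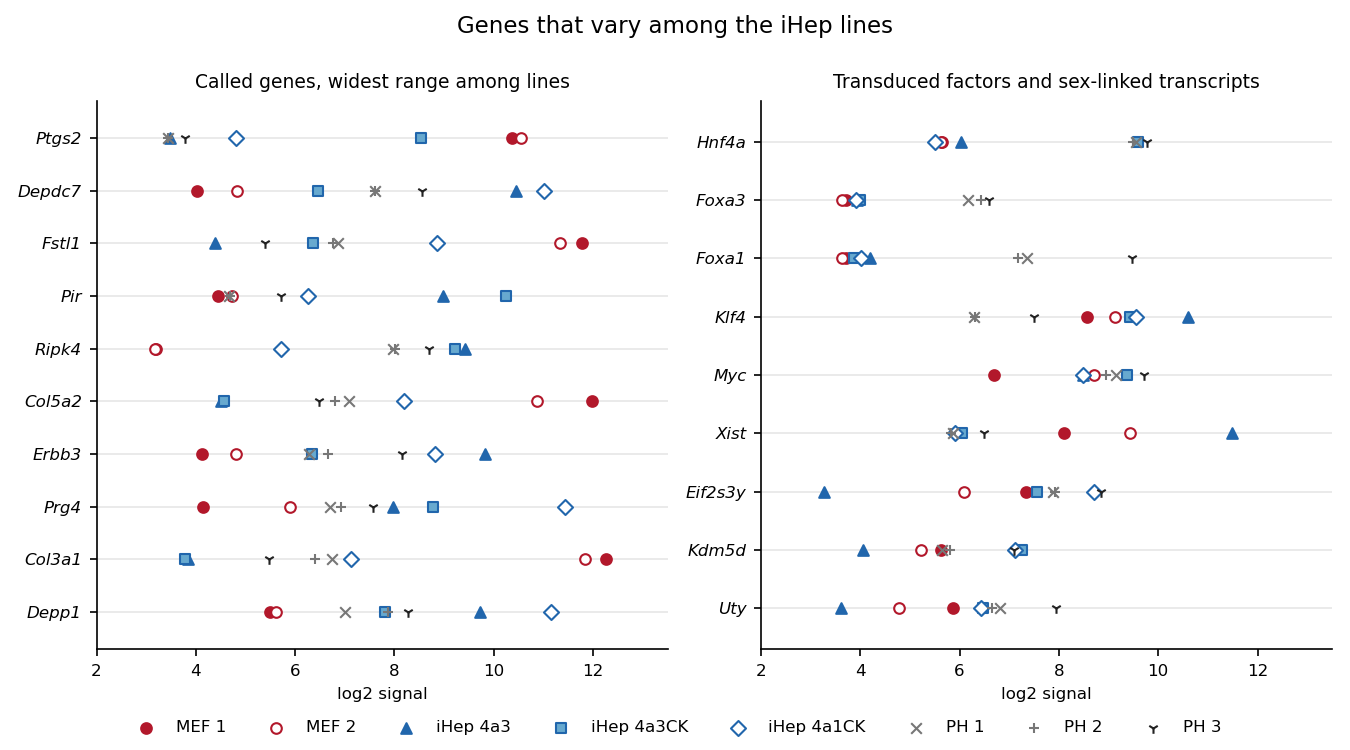
Log2 signal on all 8 arrays for the 10 called genes with the widest range among the iHep lines (left) and for the 5 transduced factors and 4 sex-linked transcripts (right). Hnf4a is high only in 4a3CK (9.59) among the lines, and Xist is highest in 4a3 (11.48), where the Y-linked Eif2s3y is lowest (3.27).

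Depdc7, among the called genes with the widest range among the lines, was at 4.02 and 4.84 in the MEFs and 10.44, 6.46 and 11.01 in the lines. The kinase Ripk4 was at 3.20 and 3.18 in the MEFs and 9.42, 9.21 and 5.72 in the lines. Line 4a3CK was low for Depdc7 and 4a1CK for Ripk4. Prg4, the lubricin of joint surfaces, was at 4.14 and 5.89 in the MEFs and 7.98, 8.78 and 11.43 in the lines. Depp1, a target of FOXO factors, was at 5.49 and 5.61 in the MEFs and 9.72, 7.82 and 11.15 in the lines. Both were highest in 4a1CK. Pir, a target of oxidative stress signalling, had the same difference of 3.91 with and without probe sets for several transcripts. It was at 4.44 and 4.73 in the MEFs and 8.98, 10.24 and 6.26 in the lines, lowest in 4a1CK. Their differences from the MEFs were 4.88, 4.93, 4.39, 4.02 and 3.91, and none of these 5 was called without MEF 1 or without MEF 2. Single arrays ended the calls of Depdc7 (without MEF 1, MEF 2, 4a3, 4a1CK, PH 1 or PH 2, adjusted p = 0.0705 to 0.227), Ripk4 (without MEF 1, MEF 2 or 4a3, adjusted p = 0.0524 to 0.111), Prg4 (without MEF 1, MEF 2, PH 1 or PH 2, adjusted p = 0.0513 to 0.201), Depp1 (without MEF 1, MEF 2 or 4a3, adjusted p = 0.0687 to 0.133) and Pir (without MEF 1, MEF 2, 4a3, 4a3CK, PH 1 or PH 2, adjusted p = 0.0519 to 0.227), and Pir was not called without probe sets for several transcripts either (3.91, adjusted p = 0.0511).

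None of the transduced factors was called. Hnf4a was at 5.65 and 5.62 in the MEFs and 6.04, 9.59 and 5.50 in the lines. Foxa3 was at 3.71 and 3.62, then 3.94, 3.99 and 3.92 and Foxa1 at 3.71 and 3.63, then 4.19, 3.87 and 4.01 in the same order. Only 4a3CK had a high Hnf4a among the lines. Klf4 was at 8.56 and 9.12 in the MEFs and 10.60, 9.43 and 9.56 in the lines. Myc was at 6.69 and 8.71 in the MEFs and 8.48, 9.38 and 8.48 in the lines. Probe sets of 3' arrays may lie outside a delivered coding sequence, and these values therefore do not check which factors a line received. Klf4 was highest in 4a3, which the labels give without Klf4. Sex-linked transcripts set the lines apart from each other. Xist, transcribed from the inactive X, was at 8.11 and 9.43 in the MEFs and 11.48, 6.04 and 5.91 in the lines, and the Y-linked genes Eif2s3y, Kdm5d and Uty were at 7.34 and 6.08, then 3.27, 7.56 and 8.71 for Eif2s3y, 5.62 and 5.22, then 4.05, 7.26 and 7.12 for Kdm5d and 5.86 and 4.77, then 3.61, 6.47 and 6.42 for Uty. Line 4a3 had the highest Xist and the lowest Y-linked values, 4a3CK and 4a1CK had the reverse, and the MEF arrays lay between them in Xist. Line 4a3 and the CK lines thus differ in sex-linked transcripts as well as in their factors and the time of their colonies. Of these 4 transcripts 0 passed between lines and MEFs, or 1 without 4a3.

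Other settings of the model ended calls of genes named above. With the deposition set as a block these were Btg2, Ccnd3, Col5a2, Depdc7, Depp1, Epha2, Erbb3, Fhl1, Fstl1, Gadd45a, Grhl1, H2-Q10, Hoxa11, Hpgd, Insr, Kcnk5, Krt18, Mcm5, Mpp5, Msx2, Nrarp, Pir, Prg4, Prrx1, Psmb10, Ptgs2, Rbm47, Ripk4 and Vil1. With only the 5 arrays in the fit they were Cdkn2a, Col2a1, Col5a2, Ctss, Depdc7, Depp1, Erbb3, Fhl1, Fos, Fstl1, Gbp2, H2-Q10, Hoxa11, Hpgd, Krt18, Krt8, Mcm5, Msx2, Pir, Prg4, Prrx1, Prrx2, Psmb10, Ptgs2, Rbm47, Ripk4, Tapbp and Vil1. The bacterial control block at its widest gap ended the calls of Abcb1a, Atf3, Btg2, Cbx7, Cdk2, Cdkn2a, Cdon, Cgn, Cnn2, Col2a1, Col3a1, Col5a2, Ctss, Depdc7, Depp1, Erbb3, Fhl1, Flrt3, Fos, Fstl1, Gadd45a, Gata6, Gbp2, Grhl1, H2-Q10, Hes6, Hoxa11, Hpgd, Ifit3, Insr, Kcnk5, Krt18, Krt8, Lgr4, Mcm5, Met, Mpp5, Msx2, Nrarp, Perp, Pir, Plod1, Prg4, Prrx1, Prrx2, Psmb10, Ptgs2, Rb1, Rbm47, Rgs2, Ripk4, S100a4, Tapbp, Tead2, Tgfa, Trp53inp1 and Vil1, and with it the falls numbered 16 in guidance molecules, 12 in growth factors and receptor kinases, 8 in the BMP and TGF-beta pathway and 8 in immediate early genes, the rises 0 in growth factors and receptor kinases and 1 in epithelial transcription and splicing factors. Subtracting array medians ended the calls of Abcc3, Cdk2, Epha2, Fhl1, H2-Q10, Hpgd and Tapbp, and quantile normalization those of Cdk2, Fhl1, H2-Q10 and Hpgd. The trended and robust variance ended the calls of Ccnd3, Cdk2, Depdc7, Epha2, Fos and Ptgs2, and each line as a group of its own those of Ccnd3, Cdk2, Epha2 and Fosl2.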

How the data were processed

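RNA of 2 MEF, 3 iHep and 3 PH samples was measured on mouse 3' expression arrays, 1 array each, with PH 3 the hepatocyte array whose title has no number. The deposited values are log2 signals that the authors made with Partek and RMA, per the submitters' processing notes, in versions not given in the sources used here. No read counts underlie such values, and the precision is set by how many arrays there are.

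Of 45141 probe sets 104 were controls, 28898 had 1 gene symbol, 551 several and 15588 none in the platform annotation, which can be old. A gene with several probe sets was read from the one with the highest mean over 8 arrays, and of 217 named and called genes 20 had probe sets that disagreed in sign (Ccnd3, Cd44, Cd53, Cdon, Ehd2, Epha3, Frmd4b, Fzd7, Hoxd13, Inhba, Lats2, Lgr4, Mcm5, Mycn, Mylk, Ntn1, Palld, Ptx3, Rtp4 and Sulf1). In the mean over all probe sets 28 of the 217 lost the call and 30 others moved by over 1.5 times. A 3-group model over 8 arrays with 5 residual degrees of freedom was fitted with limma 3.58.1 in R 4.3.3, with Benjamini-Hochberg adjustment over 17097 genes, and was tested on simulated data. Summaries and plots used Python 3.11.15, pandas 2.3.3, numpy 2.4.6 and matplotlib 3.10.9.

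The members, the gene lists and the tests were chosen with earlier results of these data known, and lists are described by counts and medians only. Named genes were the 20 widest gaps in each direction, up to 6 called members of a list in each direction, the 3 largest differences of a list that did not pass, the transduced factors, the 10 widest ranges among lines, the gained and lost genes, and marker list members. Alternatives were quantile normalization, array medians subtracted, the mean of all probe sets, no dim genes, no probe sets for several transcripts, a trended robust variance, only 5 arrays, lines as groups of their own, the deposition set as a block, stricter thresholds, other dim levels and each array left out. The bacterial control block was added after seeing the data. Promoter windows come from RefSeq (GRCm38.p6), where 13605 genes of the table matched by symbol, and motifs were searched on both strands. The CArG box was searched by its consensus. Protein sequences were not used here.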

Additional observations from a re-analysis of the deposited data

Results flagged for a closer look

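Probe sets with no gene symbol, which the comparisons above do not use, also separated lines from MEFs. Under the same limma test and thresholds 334 of 15588 were called (2.14%), 127 higher and 207 lower in the lines, against 6.49% of the named genes outside the hepatocyte programme. They were singled out because they lie outside the table of genes, and they are named nowhere here.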

How the results depend on the processing

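Counts of called genes are given outside the hepatocyte programme first and over all genes second. At an adjusted p under 0.01 379 and 389 genes were called, with a difference of at least 2 530 and 545, and with the bacterial control block cut at mid-range 95 and 97. With 1 array left out the counts ran from 460 to 1847 and from 471 to 1874, lowest without MEF 1 and highest without PH 3. The rules for gained and lost genes ask less with a MEF array or a line left out, so their counts could not fall there. Genes gained numbered 6 with the 50th percentile as the dim level, and 2 to 9 with 1 array left out. Genes lost from the MEFs numbered 12 with the 30th percentile, 36 with the 50th, and 24 to 77 with 1 array left out. The other alternatives kept these counts within 1.5 times. Of 217 named and called genes 99 kept the call in every alternative run. The call was lost by 84 without MEF 1, 74 without MEF 2, 60 without 4a3, 38 without 4a1CK and 15 without 4a3CK, by 34 without PH 1 or PH 2 and by 2 without PH 3. It was lost by 79 with the bacterial control block at its widest gap, 38 with the deposition set as a block, 36 with only the 5 arrays, 27 with the mean of all probe sets, 12 after subtracting medians, 7 after quantile normalization, 8 each without probe sets for several transcripts, with a trended robust variance and with each line as its own group, and 1 without dim genes. Ccnd3 turned direction in the mean of all probe sets, to 0.10. The cause of these changes was not tested. A lone MEF array was assumed to vary like the other groups. No paired analysis was possible because the lines carry no replicate number. Differences in dim genes are limited by the background of 2.83 to 3.53 read by the control probe sets.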

Other observations

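Of 38 tetraspanins and surface glycoproteins 1 was called higher in the lines (2.63%) and 6 lower (15.8%), with a median difference of -0.12. Of 38 genes of pattern recognition and NF-kB signalling 1 was higher (2.63%) and 2 lower (5.26%), with a median of -0.34. Over all genes outside the programme 1.95% were higher and 4.54% lower. The falls numbered 0 without MEF 1, 4a3 or 4a1CK and 5 without 4a3CK, and the rises 2 without MEF 1 and 0 without MEF 2, 4a3, 4a1CK, PH 1 or PH 2. Ccl2, a chemokine that recruits monocytes, was at 11.62 and 9.91 in the MEFs, 5.12, 4.96 and 5.06 in the lines and 11.09, 11.26 and 11.28 in PH. Ccl2 was thus high in both primary cell types and near the dim level in every line, with a difference of -5.72 from the MEFs and -6.16 from PH. Rian, a noncoding RNA of an imprinted cluster, was at 10.23 and 10.25 in the MEFs and 4.72, 4.70 and 5.27 in the lines. Of the genes called in the lines against MEFs, 277 lower genes were also lower than PH and 80 higher genes were also higher than PH, each with an adjusted p under 0.05 in limma and a difference of at least 1. The comparisons share the lines, so these counts are descriptions.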
